A study of Drosophila melanogaster with 18 samples.

Results

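The Jra-only peaks are the 1470 intervals of the authors' Jra peak list that share no base with an interval of the Scalloped (Sd) list or of the Yorkie (Yki) list. They make up 32.2% of the 4568 Jra peaks and belong to a total of 13503 intervals in the 3 lists. Of the other Jra peaks, 501 overlapped an Sd peak, 473 overlapped a Yki peak and 2124 overlapped a peak of each. The members were thus chosen from measured binding: a Jra peak was called against Dam, and no Sd or Yki peak was called at the same place. Fold changes of the 3 fusions over Dam are therefore given below as a description of the members and not as support for them.

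Jra is the Drosophila orthologue of c-Jun. It pairs with Kay, the Fos orthologue, to form the transcription factor AP-1, which the JNK kinase cascade activates in stressed, wounded or tumour-forming epithelia. Sd is the TEAD-family DNA-binding partner of Yki, the co-activator that the Hippo pathway restrains. In DamID a protein is fused to the bacterial methyltransferase Dam, which methylates GATC sites close to where the protein sits. Only fragments between methylated sites are amplified, so the resolution is that of the GATC map, and Dam without a fusion partner marks open chromatin.

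The material was eye-antennal discs of early third-instar larvae, the epithelia that form the adult eye and antenna. All 18 libraries carried Eyeless-Gal4 and the temperature-sensitive Gal4 inhibitor Gal80ts, the controls included. They differed in the transgene under UAS control: UAS-Dam in 9 control libraries that the titles split into Set 1, Set 2 and Set 3, and UAS-Dam-Sd, UAS-Yki-Dam or UAS-Dam-Jra in 3 libraries each. Eggs were laid at 25 °C, kept at 18 °C for 4 days and moved to 29 °C for the last 24 hours, so that methylation was limited to that window and to cells in which Eyeless-Gal4 was active. The fusion was an added copy in cells that keep their own Jra, Sd and Yki. The labels do not say whether replicates came from separate crosses, so the spread between them may be technical. DamID measures no RNA, and the disc could not be checked against expression markers.

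The libraries held 21416846 to 40967981 counted reads. Levels are given as CPM, the reads of a peak per 1000000 reads of the library after TMM scaling. TMM factors ran from 0.62 to 0.63 in Dam-Jra, from 0.50 to 1.06 in Dam-Sd, from 0.88 to 0.93 in Yki-Dam and from 1.07 to 1.75 in the Dam libraries, so the scaling moves every fold change between groups. Over all 114685 regions tested, the median log2 fold change of Dam-Jra over Dam was -0.577 with TMM and -1.68 when libraries were scaled by their totals alone. Changes are best read relative to those medians.

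The Jra-only peaks were short. Their median length was 794 bp, against 1395.5 bp for peaks shared with both Sd and Yki, and 602 of them (41.0%) were a single GATC fragment, against 12.9% of the three-way peaks. A longer peak has more bases that can meet another list, so this difference follows in part from the rule. The authors' lists hold only peaks within 5 kb of an annotated gene start. A listed start lay inside 404 members (27.5%), against 34.6% of the three-way peaks, and 915 members (62.2%) had one within 1 kb. Placed on the protein-coding genes of dm6, 926 members lay inside at least 1 gene. Another 308 (21.0%) crossed a gene end without lying inside a gene, and 236 (16.1%) lay between protein-coding genes. They were spread over the chromosome arms with 276 on 2L, 274 on 2R, 298 on 3L, 343 on 3R, 269 on X and 10 on 4.

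Many Jra-only peaks sat close to Sd or Yki peaks. The median gap to the nearest one was 3514 bp. The gap was under 1 kb for 352 members (23.9%) and under 5 kb for 883 (60.1%), and 164 members (11.2%) lay more than 20 kb away. The members just inside the rule were the peak at Dhod and Sys1 (chr3R:8652778-8653576), 2 bp from an Sd peak, and the peak near lncRNA:CR44950 (chr3R:26075821-26076253), 3 bp from one. Just outside it were peaks near CG7296 (chr2L:10687444-10688036) and at S (chr2L:1073251-1074047), which share only the 4 bases of a GATC site with an Sd peak. Neighbouring fragments always share such a site, and 111 Jra peaks left out of the set had no more than that in common with another list.

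At the members, Dam-Jra was high and narrow. Around the peak centres it averaged 9.58 CPM per GATC end, with libraries between 9.25 and 9.82, and declined to 3.57 CPM at 3 to 5 kb. The other groups averaged 1.93 (Dam Set 1), 2.10 (Dam Set 2), 3.03 (Dam Set 3), 2.93 (Dam-Sd) and 2.69 (Yki-Dam) at the same centres. No library of theirs exceeded 3.92, so the Dam-Jra libraries stood apart at the centre. Dam-Sd was no higher at the centre than in the flanks, where it averaged 3.01 CPM. The flanks are not a background level, as Sd and Yki peaks in them were kept in the average. Such a peak lay within 5 kb of 60.1% of the members, and the rule allows none over a member. At the three-way peaks the centres reached 25.0 CPM in Dam-Jra, 22.3 in Dam-Sd and 16.7 in Yki-Dam, with Dam at 4.09 to 8.03.

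**Figure D1:**
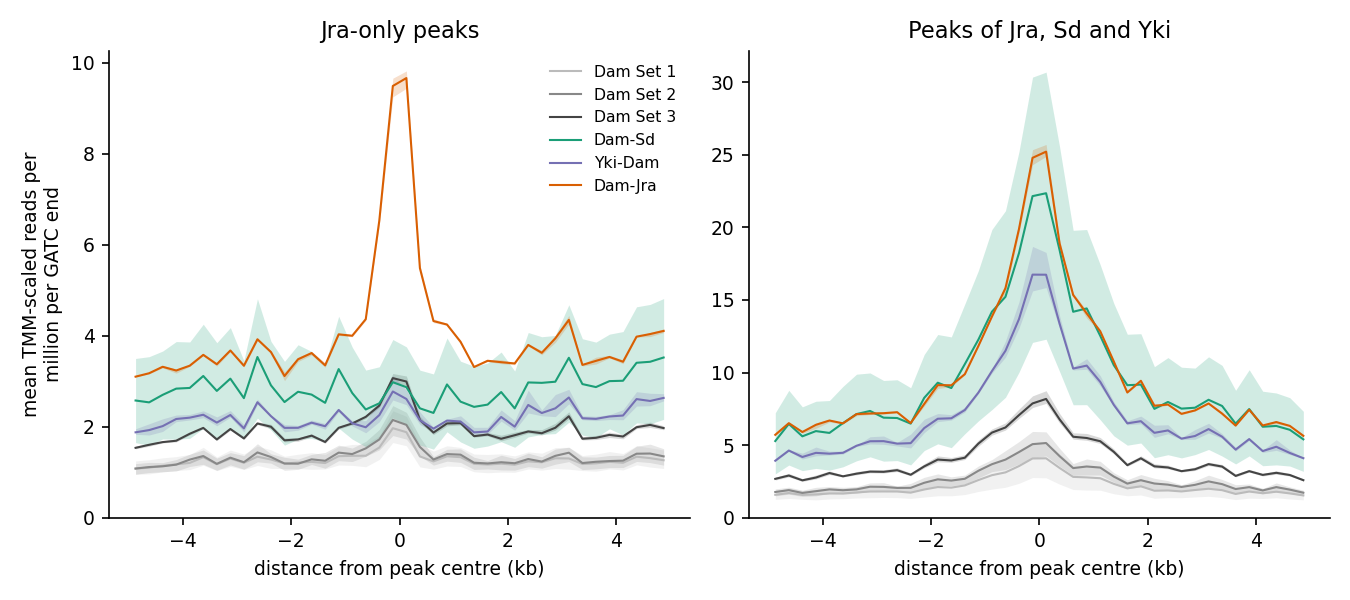
Mean signal by distance from the peak centre (kb) at the 1470 Jra-only peaks and the 2124 peaks of all 3 lists, in CPM per GATC end averaged in 250 bp bins. Lines are means of 3 libraries and bands run from the lowest to the highest library. At the Jra-only peaks the Dam-Jra line alone rises to 9.58 CPM.

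The peaks took 4.13 to 4.43% of all reads in the Dam-Jra libraries. That share was 1.93 to 2.31% in the 9 Dam libraries, 1.67 to 1.91% in Yki-Dam and 1.34 to 1.55% in Dam-Sd. This share amounts to scaling by library totals alone, so reads taken by other peaks lower it. The three-way peaks took a mean of 27.0% of Dam-Sd reads and 11.5% of Dam Set 1 reads. By totals alone the median log2 fold change of Dam-Sd over Dam Set 1 at the members was -0.871. With TMM it was 0.24. The ranges given for the members did not overlap, though the Dam sets overlapped each other. The rule used all 3 fusions, so the order of these shares is a description and no support for the members. In Dam Sets 1, 2 and 3 the member centres averaged 1.93, 2.10 and 3.03 CPM per GATC end. Their flanks at 3 to 5 kb averaged 1.22, 1.26 and 1.83. Per kb of peak, these Dam sets were lower at the members than at the three-way peaks. The medians were 5.89, 6.11 and 6.74 CPM against 15.4, 17.5 and 28.4 CPM. Dam-Jra itself was lower at the members too, at a median of 24.6 CPM per kb against 92.1. The members and the three-way peaks thus differed in level, while their median log2 fold changes of Dam-Jra over Dam were 1.96 and 2.14. Those of Dam-Sd over Dam Set 1 were 0.24 and 2.12, and those of Yki-Dam over Dam Set 2 were 0.24 and 1.64.

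The median log2 fold change of Dam-Jra over the mean of the 3 Dam sets was 1.96 at the members and between 2.09 and 2.15 in the 3 shared classes. In edgeR's quasi-likelihood test 1410 members were called higher at an adjusted p below 0.05 and 0 were called lower, where 23.9% of all regions were called higher and 34.2% lower. All 3 Dam-Jra libraries exceeded all 9 Dam libraries at 1238 members (84.2%), against 19.6% of all regions. The rule used this contrast, so nothing is read from these counts. Scaled by totals alone, the median at the members was 0.85 and 868 were called higher, where 10.4% of all regions were. Against Dam Set 3 alone 1373 were called higher, where 14.1% of all regions were, and against Dam Set 1 alone 1302, where 22.4% were.

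**Figure D2:**
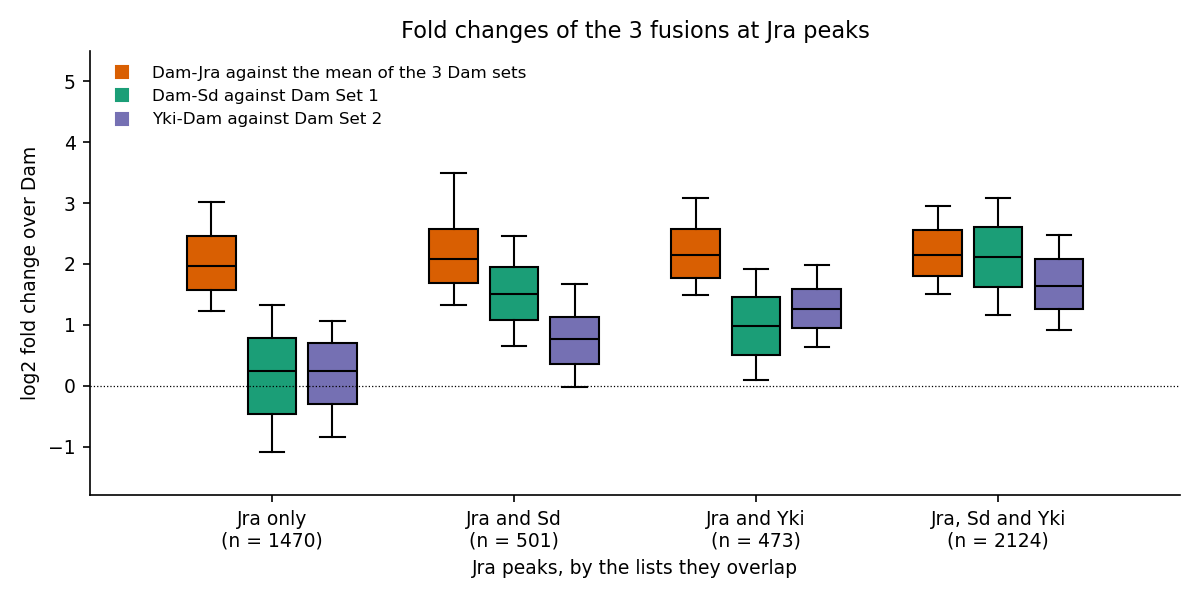
Fitted log2 fold changes over Dam (vertical axis) of Dam-Jra, Dam-Sd and Yki-Dam at Jra peaks, split by the lists each peak overlaps. Boxes give the quartiles and the median, and whiskers run from the 10th to the 90th percentile. Dam-Jra medians lie between 1.96 and 2.15 in every class, and Dam-Sd and Yki-Dam both have a median of 0.24 at the Jra-only peaks.

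The gene for Jra itself (FBgn0001291) held a Jra-only peak (chr2R:10097557-10098215). Dam-Jra gave 205, 234 and 226 CPM there in its 3 libraries. Dam Set 1 gave 12, 9.80 and 10.3, Dam Set 2 gave 7.33, 4.08 and 6.89, and Dam Set 3 gave 13.7, 12.7 and 10.6. Dam-Sd gave 13.7, 6.55 and 8.13, and Yki-Dam gave 10.4, 7.54 and 5.86. The Dam-Jra libraries were all far above the other 15, which overlapped each other. The log2 fold change was 4.58 ± 0.23 (SE) over Dam, -0.18 ± 0.31 for Dam-Sd and 0.38 ± 0.31 for Yki-Dam. The UAS-Dam-Jra transgene carries Jra sequence, so reads from it and from the gene itself cannot be told apart at this peak.

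Of 32 genes listed as JNK and AP-1 targets, 7 had a Jra-only peak within 5 kb (21.9%), where 1205 of 14224 protein-coding and miRNA genes did (8.47%). Of genes within 5 kb of any Jra peak, 44.9% had a Jra-only peak, and of the 24 such genes of this list the 7 were 29.2%. They were Jra, kay, Ets21C, upd3, hid, ImpL2 and wg, and all but Jra also had a shared Jra peak. At Ets21C (FBgn0005660; chr2L:551410-552380), which encodes an ETS transcription factor, Dam-Jra gave 13.1, 26.5 and 34.7 CPM. The Dam libraries there ran from 0.88 to 6.09 CPM, Dam-Sd gave 0.70, 0.74 and 0.48, and Yki-Dam gave 0.89, 1.30 and 1.02. All Dam-Sd libraries lay below all Dam libraries, with a log2 fold change of -2.53 ± 0.49 against Dam Set 1, and an Sd and a Yki peak began 390 bp away.

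The secreted factors of this list had peaks inside or beside their genes. The first of 2 peaks at upd3 (chrX:18276159-18279554), a cytokine that activates JAK-STAT signalling, held 139, 148 and 152 CPM in Dam-Jra and 26.9 to 57.1 in Dam. Its second peak (chrX:18280054-18280821) held 55.9, 58.2 and 56.6 CPM against 10.2 to 25.5. ImpL2, a secreted antagonist of insulin signalling, had 3 Jra-only peaks with log2 fold changes of 3.42 ± 0.38, 2.41 ± 0.28 and 2.06 ± 0.20. At the strongest (chr3L:4229380-4229783) Dam-Jra gave 75.8, 84.3 and 84.5 CPM, and the Dam libraries ran from 0.97 to 13.4. At wg (chr2L:7307362-7308164), the Wnt ligand, Dam-Jra gave 169, 173 and 180 CPM and Dam ran from 16.8 to 60.7. Dam-Sd reached 90.3, 52.4 and 39.8 CPM at wg, which overlaps the Dam libraries of Set 2 and Set 3 but lies above its own control, Dam Set 1, at 31.2, 25.9 and 16.8 (log2 fold change 1.30 ± 0.38, called higher). In each of these peaks the lowest Dam-Jra library was above the highest Dam library.

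At hid (FBgn0003997; chr3L:18181244-18183719), a killer gene that blocks the caspase inhibitor Diap1, the signal was low in every library. Dam-Jra gave 6.40, 10.9 and 9.93 CPM, Dam 0.78 to 2.85, Dam-Sd 1.40 to 2.54 and Yki-Dam 2.64 to 3.78. The peak at kay (chr3R:29766409-29768023) was weaker still, with 0.28, 2.74 and 2.29 CPM in Dam-Jra and 0.18 to 0.61 in Dam. Replicate 1 of Dam-Jra lay among the Dam libraries there, so this Jra peak rests on replicates 2 and 3.

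Upstream components of the cascade made up the next group, with peaks at 5 of 25 listed genes: Tak1, msn, hppy, Src42A and Traf4. Tak1 (FBgn0026323), a JNK kinase kinase kinase, had 2 Jra-only peaks and no other Jra peak. The peak over a listed start inside the gene (chrX:20518204-20519587) held 64.3, 65.2 and 67.6 CPM in Dam-Jra and 4.93 to 15.3 in Dam. Dam-Sd gave 5.98 to 7.67 and Yki-Dam 4.95 to 8.01 at that peak. The nearest Sd peak was 11333 bp away. The second (chrX:20525008-20525260) lay outside the gene, 81 bp from another listed start. It held 3.67, 4.88 and 3.20 CPM against 0 to 0.91 in Dam, and Yki-Dam gave 2.48, 2.01 and 2.01 there, also above every Dam library. At msn, a Ste20-family kinase (chr3L:2579517-2581867), the log2 fold change was 2.53 ± 0.23. At Src42A, a Src-family kinase (chr2R:5990317-5990651), Dam-Jra gave 116, 122 and 117 CPM against 9.88 to 37.4 in Dam.

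Genes of bZIP factors, the family to which Jra belongs, had peaks at 8 of 20 listed genes (40.0%): Jra, kay, Xrp1, cnc, slbo, CrebB, vri and REPTOR. Xrp1 (chr3R:18923726-18924794), which acts in cell competition and the stress of ribosomal protein loss, held 70.5, 80.3 and 77.4 CPM in Dam-Jra and 5.76 to 16.4 in Dam. At cnc, the fly counterpart of Nrf2, the log2 fold change was 2.80 ± 0.43, at REPTOR, a factor that TORC1 restrains, it was 2.72 ± 0.40, and at CrebB it was 1.77 ± 0.28. All 4 had their Dam-Jra libraries above all Dam libraries.

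**Figure D3:**
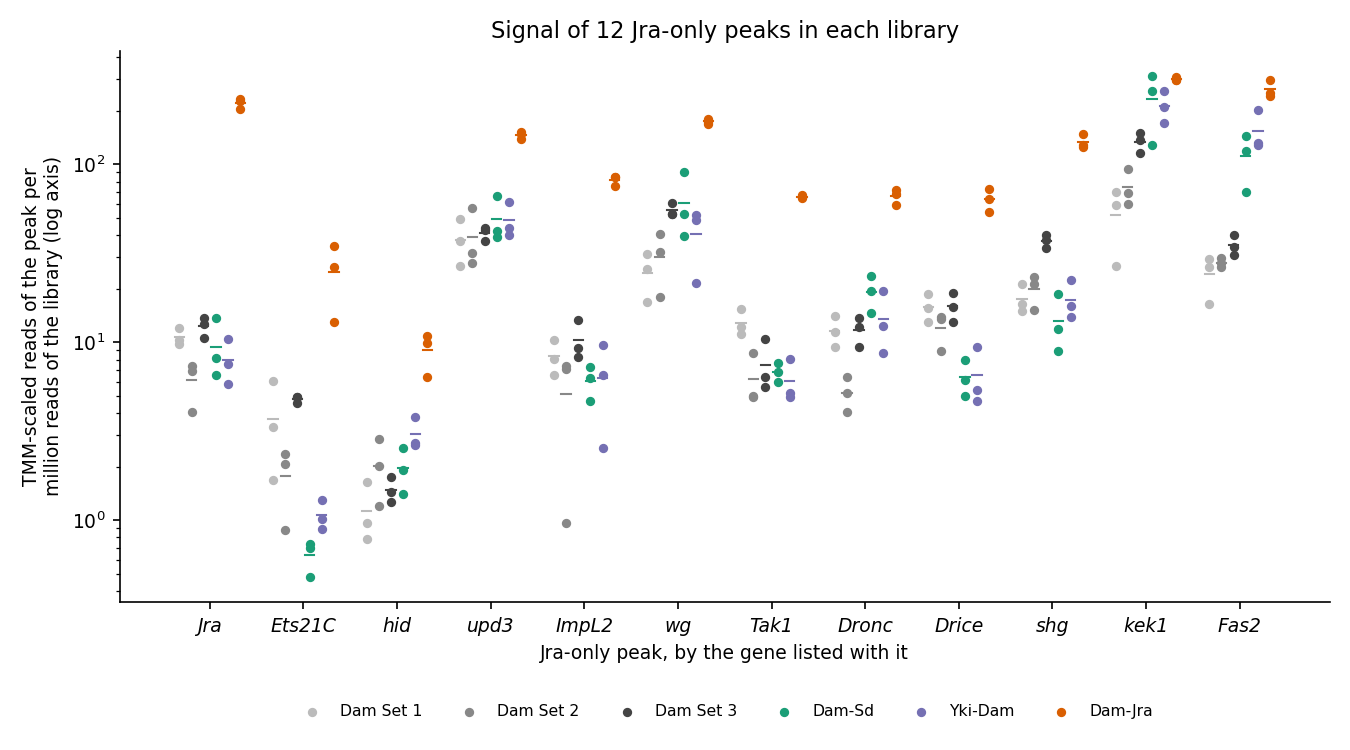
Signal of 12 Jra-only peaks in each of the 18 libraries, in CPM on a log axis. Points are libraries and short lines are means of 3; for upd3, ImpL2 and Tak1, which have more than 1 Jra-only peak, the peak with 139, 75.8 and 64.3 CPM in Dam-Jra replicate 1 is drawn. The Dam-Jra points lie above all Dam points at each peak, and at kek1 they overlap Dam-Sd.

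Hippo pathway genes formed the next group. Of 23 listed targets, 3 had a Jra-only peak, namely wg, sd and jub, and of 27 listed components 6 did (22.2%). Among the named peaks of these lists the highest log2 fold change was at the neighbouring genes Wbp2 and CG10948 (chr3L:12849600-12850840). Wbp2 encodes a WW-domain binding protein that partners Yki. Dam-Jra gave 34.5, 42.4 and 35.5 CPM there, Dam 1.48 to 3.26, Dam-Sd 0.16 to 1.17 and Yki-Dam 2.60 to 4.64, and the nearest Sd or Yki peak was 45539 bp away. At sd itself (chrX:15810587-15811540) Dam-Jra gave 63.2, 77.5 and 63.0 CPM and Dam 5.89 to 27.4, with a Yki peak 48 bp away. The log2 fold change was 1.93 ± 0.32 at jub, which encodes the LIM protein Ajuba, and 1.93 ± 0.23 at Tao, which encodes a kinase that acts on Hippo.

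Genes that specify the eye and antenna had Jra-only peaks at 13 of 32 (40.6%): ey, so, dac, tsh, toe, Optix, hth, hh, ara, caup, pnr, al and Lim1. Of these 13, 11 also had a shared Jra peak. The Hedgehog ligand gene hh had a member 4410 bp from its start (chr3R:23146315-23147041) with 46.7, 52.9 and 56.0 CPM in Dam-Jra and 7.49 to 12.1 in Dam. Yki-Dam gave 30.7, 21.6 and 22.2 CPM there, above every Dam library, though no Yki peak of the list covers it. The log2 fold change of Dam-Jra was 2.37 ± 0.21 near pnr, a GATA factor of the dorsal disc, and 2.78 ± 0.46 at hth, a homeodomain partner of Hox proteins.

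Cell death genes other than hid had peaks with no Sd or Yki peak near them. At Dronc (chr3L:9968594-9969050), the initiator caspase, Dam-Jra gave 71.9, 59.3 and 67.9 CPM, Dam 4.08 to 14.0, Dam-Sd 14.7 to 23.5 and Yki-Dam 8.76 to 19.5, and the nearest Sd or Yki peak was 95956 bp away. At Drice (chr3R:29800034-29800935), an effector caspase, Dam-Jra gave 63.9, 53.9 and 72.7 CPM and Dam 8.96 to 18.9. Dam-Sd gave 6.10, 7.95 and 4.97 CPM at Drice, below every Dam library. With hid and Diap2, 4 of 14 listed cell death genes had a member (28.6%).

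Epithelial genes had a member at 4 of 23 (17.4%): shg, dlg1, kune and sdt. At shg (chr2R:21054495-21056009), which encodes E-cadherin, Dam-Jra gave 126, 148 and 128 CPM and Dam 15.0 to 39.9, with Dam-Sd at 8.95 to 18.6 and Yki-Dam at 13.8 to 22.4. The log2 fold change was 3.80 ± 0.41 at dlg1, a basolateral polarity scaffold, and 1.40 ± 0.24 at kune, a claudin of septate junctions. Actomyosin genes had a member at 2 of 23, sn (fascin) and rhea (talin), with 1.74 ± 0.32 and 2.46 ± 0.26. Stress genes had one at 3 of 22, cnc, DnaJ-1 and foxo, and the Hsp40 gene DnaJ-1 held 228, 241 and 221 CPM in Dam-Jra against 26.9 to 76.7 in Dam. Cell cycle genes had 1 of 24, Dp.

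The same shares among genes within 5 kb of any Jra peak differed between lists. They were 66.7% for bZIP factors (8 of 12), 59.1% for eye and antenna genes (13 of 22), 57.1% for cell death genes (4 of 7), 55.6% for JNK components (5 of 9) and 46.2% for Hippo components (6 of 13). They were 28.6% for epithelial genes (4 of 14), 27.3% for stress genes (3 of 11), 17.6% for Hippo targets (3 of 17) and 12.5% for actomyosin genes (2 of 16). With lists of this size these are descriptions.

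Among the remaining lists, Notch, EGFR and JAK-STAT signalling genes had a member at 6 of 23 and ecdysone and temporal genes at 2 of 18. Chemosensory receptors, genes not used in a larval epithelium, had 1 of 24, Gr64f. Among marker genes of other cells that a dissection could carry, 0 of 5 neuronal, 0 of 4 glial, 0 of 4 fat body and 0 of 3 germline genes had a member, while 1 of 4 haemocyte genes (srp) and 2 of 4 muscle genes (Mhc and Mef2) did. Of the 49 peaks named for these lists, log2 fold changes of Dam-Jra over Dam ran from 1.36 to 4.74 with a median of 2.41. In 47 of them all Dam-Jra libraries exceeded all Dam libraries, as they did at 84.2% of the members and 19.6% of all regions. The peaks were taken by the smallest listed p for Dam-Jra, so this count is a description.

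Outside the lists, peaks were named by their fold change over Dam among members whose mean CPM was above the members' median and whose Dam-Jra libraries all exceeded all Dam libraries. The highest of these was a 302 bp peak near CG3520 (chr2R:23403529-23403830), at 4.91 ± 0.52. Dam-Jra gave 546, 578 and 551 CPM there. Dam Set 1 gave 1.75, 1.46 and 1.20, Dam Set 2 gave 7.25, 40.1 and 65.7, and Dam Set 3 gave 108, 103 and 133 CPM. Dam-Sd gave 7.56, 6.26 and 1.75, and Yki-Dam gave 20.8, 245 and 247. The Dam controls differed more between their sets at this peak than Dam-Jra differed from Dam Set 3, so its fold change depends on the control: 8.57 ± 0.96 against Set 1 and 2.29 ± 0.72 against Set 3. At CG34299 (chr3R:30249486-30250450) the controls were even, from 7.42 to 22.0 CPM, and Dam-Jra gave 288, 294 and 293. Also among the 10 highest under these conditions were the kinase gene IP3K2, the mitotic kinesin gene Klp61F and the RNA-binding protein gene larp, with 4.53 ± 0.48, 3.93 ± 0.28 and 3.83 ± 0.33.

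Scalloped and Yorkie signal over the members was measured in the same way. The median log2 fold change was 0.24 for Dam-Sd against Dam Set 1 and 0.24 for Yki-Dam against Dam Set 2, above the medians over all regions of -0.192 and -0.549. Dam-Sd was called higher at 221 members (15.0%) and lower at 149 (10.1%), where 15.9% and 16.6% of all regions were called. Yki-Dam was called higher at 95 (6.5%) and lower at 58 (3.9%), where 11.2% and 9.01% were. At 1040 members (70.7%) neither was called, at 256 (17.4%) Sd or Yki was called higher, and at 60 of these both were. These combined calls were not counted over all regions, so nothing particular to the members is read from them. A failure to be called does not show absence of binding at this depth.

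These counts depend strongly on the scaling. With library size only, Dam-Sd was called higher at 32 and lower at 657 members, where 6.56% and 39.2% of all regions were called, and Yki-Dam higher at 36 and lower at 291, where 6.98% and 28.6% were. The members' medians were then -0.871 and -0.442 and those of all regions -1.207 and -1.242, so the sign at the members turned while their medians lay above those of all regions under both scalings. For the settings that follow, the share of all regions called is not given, so their counts show only how far each setting moves them. With DESeq2's size factors the splits were 295 against 120 for Dam-Sd and 129 against 48 for Yki-Dam. With the replicate number as a block, Yki-Dam was called higher at 404 and lower at 69. Deviations of Yki-Dam and Dam Set 2 libraries correlated at 0.318 to 0.563 for equal numbers and at -0.455 to 0.334 for unequal ones. Without Dam Set 1 replicate 3, Dam-Sd was called higher at 106 and lower at 121 members, and without Dam-Sd replicate 1 at 113 and 142, so most calls were then lower. Yki-Dam was called higher at 53 and lower at 49 without Dam Set 2 replicate 2, and at 63 and 31 without Yki-Dam replicate 3.

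**Figure D4:**
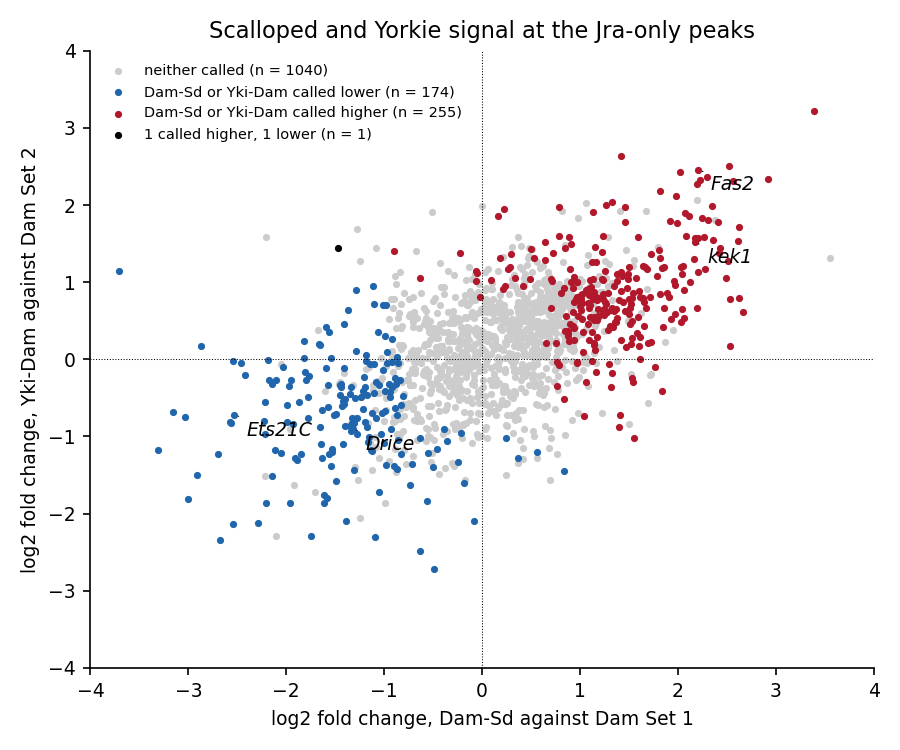
Log2 fold change of Dam-Sd against Dam Set 1 (horizontal) and of Yki-Dam against Dam Set 2 (vertical) at the Jra-only peaks, 1 point per peak; 1 peak lies outside the axes. Colours mark peaks where neither fusion was called (1040), where 1 was called higher (255) or lower (174), and 1 peak with a call in each direction, all with TMM scaling.

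The label "Jra only" is a property of the lists, and single members can hold strong Dam-Sd or Yki-Dam signal. The mean of Dam-Sd reached that of Dam-Jra at 38 of 1470 members and the mean of Yki-Dam did at 62. The same count was not made over all regions, so these counts are a description. At the peak near kek1 (chr2L:12827527-12832772), an EGFR inhibitor, Dam-Jra gave 298, 308 and 297 CPM, Dam-Sd 314, 259 and 128, and Yki-Dam 259, 171 and 211. Dam ran from 26.9 to 150 CPM there, and the nearest Sd peak began 168 bp away. The longest member, 5285 bp in the neural adhesion gene Fas2 (chrX:4199049-4204333), held 253, 297 and 242 CPM in Dam-Jra, 119, 145 and 69.8 in Dam-Sd, 202, 129 and 132 in Yki-Dam and 16.4 to 40.3 in Dam. All 9 fusion libraries exceeded all 9 Dam libraries at Fas2. At CG5726 (chr2R:18178326-18179459) Dam-Sd, at 50.3, 42.4 and 57.6 CPM, was above all 3 Dam-Jra libraries, at 34.9, 38.6 and 31.2.

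At the other end were members where Dam-Sd lay below Dam. At Nuf2 (chr2L:7064601-7065514), a kinetochore protein gene, Dam-Sd gave 0.76, 0.66 and 1.54 CPM, Dam 3.55 to 13 and Dam-Jra 31.1, 36.4 and 30.2. At unc-45 (chr3R:8033472-8034490), a myosin chaperone gene, Dam-Sd gave 2.38, 2.43 and 3.74 CPM, Dam 9.31 to 22.8 and Dam-Jra 102, 104 and 93.6. Their Dam-Sd log2 fold changes were -3.04 ± 0.40 and -2.58 ± 0.34. Dam-Sd, Dam and Dam-Jra did not overlap at either gene.

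Distance to the other lists went with the Sd and Yki signal. The median log2 fold change of Dam-Sd was 0.50 for the 352 members within 1 kb of an Sd or Yki peak, 0.12 for the 954 members at 1 to 20 kb and -0.02 for the 164 members beyond. For Yki-Dam the medians were 0.50, 0.17 and -0.14. The Dam-Jra medians were 1.96, 1.96 and 1.93 against the mean of the Dam sets and 1.68, 1.85 and 1.83 against Dam Set 3. The Dam-Jra level was 26.2, 25.1 and 20.6 CPM per kb. Of these members 97.4%, 96.1% and 91.5% were called higher against Dam, where 23.9% of all regions were. The rule used all 3 contrasts, and these are descriptions.

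The Dam sets were compared with each other to see how far the control level moves at these peaks. In this contrast, which holds no fusion library, the median log2 fold change of Dam Set 2 against Dam Set 1 was 0.14, against 0.18 over all regions. By edgeR 28 of 1470 members were called (26 higher and 2 lower), against 2.37% of all regions (1.42% higher and 0.947% lower). Among the peaks named here the largest called differences were at CG3520 (4.68 ± 0.81, adjusted p = 0.00385) and the peak at lncRNA:CR46123 (3.13 ± 0.60, adjusted p = 0.0091), and all 3 Set 2 libraries were above all 3 Set 1 libraries at both. At msn the difference was 1.32 ± 0.32 (adjusted p = 0.0322 by edgeR), with 4.72, 4.49 and 4.60 CPM in Set 2 and 2.10, 1.68 and 1.74 in Set 1. The count rests on single libraries: it was 3 without Dam Set 1 replicate 3, 6 without Set 1 replicate 1, and 9, 7 and 13 without Set 2 replicates 1, 2 and 3. It was 12 with library size only and 125 with DESeq2's Wald test.

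Dam Set 3 differed more from the other sets. Against Set 1, 129 members were called (102 higher and 27 lower), where 6.88% of all regions were (4.42% higher and 2.46% lower). Against Set 2, 299 members were called (148 higher and 151 lower), where 20% of all regions were (6.09% higher and 13.9% lower). The median log2 fold changes were 0.31 and 0.25 with TMM, above the medians of all regions of -0.16 and -0.158, and -0.211 and -0.181 with library size only. Single libraries move these counts as well. The calls against Set 1 numbered 200, 27 and 17 without Set 1 replicates 1, 2 and 3 and 30, 27 and 20 without those of Set 3. The calls against Set 2 numbered 94 without Set 2 replicate 2 and 57, 67 and 113 without Set 3 replicates 1, 2 and 3.

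The fold change that the authors' deposited table lists for each peak was compared with the fits. Over the 1470 members its Pearson correlation was 0.881 with the fit against Dam Set 3, 0.706 with that against the mean of the sets and 0.377 with that against Dam Set 1. The points are peaks that share libraries, so this describes which control resembles the authors' values and is no test. The sample titles give Dam-Jra the label Set 1.

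Many of the largest fold changes in the authors' deposited table sat on peaks where the Dam-Jra libraries disagreed. In 69 members (4.7%) Dam-Jra replicate 1 was under 0.1 of the mean of replicates 2 and 3, against 71 of the 3098 other Jra peaks (2.3%). Replicate 2 fell under the same limit in 7 members and replicate 3 in 0. These 69 included 47 of the 80 members with a log2 fold change above 4 in the authors' deposited table (58.8%), and 22 of the other 1390 (1.6%). At CG12170 (chr3R:5637251-5638274), listed at 7.20 in the authors' deposited table, Dam-Jra gave 0, 34.1 and 43.2 CPM. Dam Set 1 gave 21.2, 0.66 and 0.16, Dam Set 2 gave 7.39, 0.09 and 0.06, and Dam Set 3 gave 0, 0 and 0.21. The fitted log2 fold change was 8.29 ± 2.43 against Set 3 and 1.81 ± 1.68 against Set 1, and Dam-Jra overlapped Dam. This peak and the others of largest listed fold were chosen after their values were seen.

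**Figure D5:**
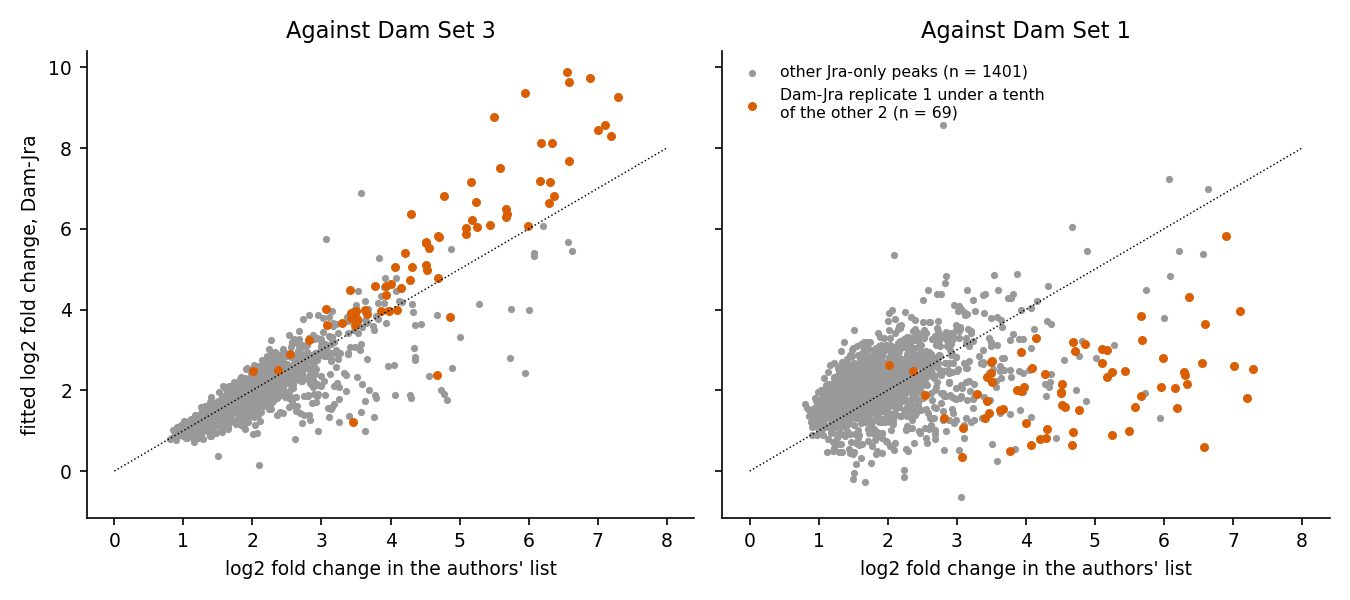
Fitted log2 fold change of Dam-Jra against Dam Set 3 (left) and Dam Set 1 (right) by the log2 fold change in the authors' list, 1 point per Jra-only peak; the dotted line marks equal values. Orange points are the 69 peaks with Dam-Jra replicate 1 under 0.1 of the mean of the other libraries: their median fit is 5.51 against Set 3 and 2.09 against Set 1.

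Over the 69 peaks the median was 0 CPM in Dam-Jra replicate 1, with 0 reads in 43 of them, and 5.56 and 6.44 CPM in replicates 2 and 3. Dam Set 1 replicates 1, 2 and 3 had medians of 1.92, 0.46 and 0.08 CPM, Dam Set 2 had 1.46, 0.26 and 0.36, and Dam Set 3 had 0.06, 0 and 0.19. At the other 1401 members the Dam-Jra medians were even, at 20.2, 22.8 and 21.9 CPM. Of the 69, 66 were called higher against Set 3 and 14 against Set 1. Of the other 1401, 93.3% and 91.9% were, and of all regions 14.1% and 22.4%. Why single libraries lack these fragments was not tested.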

How the data were processed

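Targeted DamID libraries from 18 samples in 6 groups of 3 were analysed. The authors deposited raw read counts per end of each GATC fragment; Subread, featureCounts, edgeR, bedtools and dm6 are named in the submitters' processing notes, without versions. The authors' deposited peak lists give, per region, a log2 fold change, a p-value (whether adjusted is not stated), a fraction that was not used, and gene starts; the sources do not say which Dam libraries served as control. The lists have no header, and their columns were identified from the values. Gene symbols were matched to RefSeq genes of Release 6 for 5001 of 5185 listed IDs (96.5%), mostly by the listed position.

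Counts of GATC ends were summed over every listed interval and over 1 kb tiles of the remaining ends (129068 regions). All 18 libraries (21416846 to 40967981 counts each) were fitted together as 6 groups with edgeR 4.0.16 (R 4.3.3; TMM scaling, filterByExpr with a minimum count of 10, quasi-likelihood test, Benjamini-Hochberg adjustment over the 114685 regions kept, calls at adjusted p below 0.05). All 1470 members passed the filter. CPM values are per 1000000 reads after TMM scaling. Dam-Jra was set against the mean of the 3 Dam sets, Dam-Sd against Dam Set 1 and Yki-Dam against Dam Set 2. Tests were checked on simulated counts. Other scalings, filters, controls, DESeq2 1.42.0, replicate blocks and leaving out each library were tried.

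Members and gene lists were chosen with earlier results of these data known. Peaks named were those with the smallest listed p within 5 kb of a list gene, the 10 highest fitted Dam-Jra fold changes among members with mean CPM above the members' median and all Dam-Jra above all Dam libraries, the longest peaks, the smallest gaps to another list and the extremes of Dam-Sd. Titles number the replicates. Deviations of equal-numbered libraries correlated at 0.238 to 0.517 between Dam-Sd and Dam Set 1 and at 0.318 to 0.563 between Yki-Dam and Dam Set 2. Those of unequal number correlated at -0.473 to 0.338 and at -0.455 to 0.334, so the ranges overlapped. The blocked fit treated libraries of equal number as paired. The result of 1 gene list is not reported here.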

Additional observations from a re-analysis of the deposited data

How the results depend on the processing

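Of 1470 Jra-only peaks, 1118 had no Sd or Yki peak within 1 kb. When a shared GATC site was allowed (chosen after seeing the data), 1581 Jra peaks met the rule, and 2127 did when 50% of the peak had to be overlapped. Among the 50% of Jra peaks with the smaller p, 479 met the rule, and 2449 did against the 50% of Sd and Yki peaks with the smaller p. The count of members with Dam-Jra called higher (1410) stayed between 1289 and 1415 over the alternatives run other than library-size scaling (868) and the restriction to 1118 members (1067); without single libraries it ran from 1330 to 1414. With Dam-Sd called higher (221), the count was 113 at adjusted p below 0.01, 142 over the members beyond 1 kb, 32 with library size only, 105 with only its own libraries fitted and 345 with DESeq2's Wald test, and 106 to 323 without single libraries. With Yki-Dam called higher (95), it was 37, 58, 36 and 202 under the first 3 and the last of these, 242 against the mean of the 3 Dam sets, and 53 to 98 without single libraries. Calls between Dam Sets 2 and 1 (28) numbered 4 at adjusted p below 0.01, 12 with library size only, 3 with their own libraries alone, 3 with the replicate block, 125 with DESeq2's Wald test and 3 to 35 without single libraries. Calls between Dam Sets 3 and 1 (129) numbered 16 at adjusted p below 0.01, 376 with their own libraries alone, 283 with the replicate block, 287 with DESeq2's Wald test and 17 to 200 without single libraries; those between Sets 3 and 2 (299) numbered 38 at adjusted p below 0.01 and 57 to 236 without single libraries (both comparisons added after seeing the data). The replicate block gave 185 Dam-Sd and 404 Yki-Dam calls, and 1289 and 1413 Dam-Jra calls against Sets 1 and 3 (105, 89, 1325 and 1415 in the same libraries without it). Equal-numbered Dam-Jra and Dam libraries did not deviate together (-0.236 to 0.065). Of 1685 alternative fold changes at 77 named peaks, 0 changed sign and 22, at 14 peaks, were no longer called. The shares of all regions called are not given here, so the counts show only how far each setting moves them. The cause of these differences was not tested.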

Other observations

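Some members were nearly missing from a single library of a group, and part of these were shared between groups. Counting members where 1 library was under 0.1 of the mean of the other 2 of its group, with that mean at 1 CPM or more, Dam-Jra replicate 1 had 69, Dam Set 1 replicate 3 had 32, Dam Set 2 replicate 1 had 20, Dam-Sd replicate 3 had 18, Dam-Sd replicate 1 had 16 and Yki-Dam replicate 1 had 15. Each of the other 12 libraries had 10 or fewer. Of the 32 in Dam Set 1 replicate 3, 31 were also among the 69 of Dam-Jra replicate 1 (96.9% of the shorter list and 44.9% of the longer). So were 13 of 18 in Dam-Sd replicate 3 and 7 of 9 in Dam Set 1 replicate 2. In Dam Set 2, 9 of 10 in replicate 2 and 5 of 7 in replicate 3 were. The lists of Dam Set 2 replicate 1, Yki-Dam replicate 1 and Dam-Sd replicate 1 had 0, 0 and 1 among the 69. These counts were not made over all regions. Of the 15 in Yki-Dam replicate 1, 8 were among the 20 of Dam Set 2 replicate 1 (53.3% and 40.0%). The limits were chosen after the values were seen.

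At several named peaks, among them REPTOR, wg and foxo, replicate 1 was the lowest library of both Dam Set 2 and Yki-Dam. At others, such as Xrp1, replicate 1 was the highest of both. IP3K2 and dlg1 are given here as examples of the first kind. At IP3K2 (chrX:13320108-13320527) Dam Set 2 gave 0.24, 2.44 and 2.85 CPM and Yki-Dam 0.85, 8.10 and 7.53, while Dam-Jra gave 60.0, 64.2 and 63.2. At dlg1 (chrX:11392085-11392373) Dam Set 2 gave 1.73, 3.64 and 7.54 CPM and Yki-Dam 1.89, 13.6 and 12.2, while Dam-Jra gave 124, 130 and 116. Dam Set 2 replicate 1 was under 0.1 of the other libraries at IP3K2, Yki-Dam replicate 1 was not, and neither was at dlg1. The Dam-Jra libraries were even at both peaks.

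At spz4 (chr2L:11504884-11505395) all 6 libraries of Dam Sets 2 and 3 held 0 reads, and Dam-Jra gave 0, 2.78 and 6.74 CPM. At Patr-1 (chr3R:17047690-17047910) the low Dam-Jra library was replicate 2, with 5.79, 0.05 and 4.84 CPM.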
